A study of Mus musculus with 35 samples.

Results

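Gene expression was compared between retinas of wild-type mice after 10 weeks of diabetes in which microglia had been depleted and left to return (D10 repopulated, 5 samples) and retinas that had been diabetic for the same time with PBS and no depletion (D10, 5 samples). All 25655 genes of the authors' table for these groups were described, and 16826 of them carried an adjusted p and count as tested. The label of D10 repopulated gives 2 weeks of DTx and 2 further weeks of DTx recovery, while the series text names the drug PLX-5622 as the depleting agent and does not mention DTx. No value in the tables tells them apart, and the treatment is called depletion here. The wider series holds 35 retina samples in 7 groups, and nothing in the labels ties a sample to 1 animal, so p-values measure only the spread between samples. Beside D10 and D10 repopulated, values are given for non-diabetic retina (ND, 6 samples), ND repopulated (5), 6 weeks of diabetes (D6, 5), 8 weeks of diabetes with PBS (D8, 5) and 8 weeks with 2 weeks of depletion (D8 depleted, 4). ND carries no PBS in its label. The genotype is given as wild type throughout, and the sources used here do not state which cells DTx acted on.

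Microglia are the resident macrophages of the retina. They depend on signalling through the colony stimulating factor 1 receptor, survey neurons and synapses with fine processes, and express a set of homeostatic genes that includes the fractalkine receptor gene Cx3cr1 and the complement C1q genes. When they are removed the niche is refilled by division of survivors or by cells that enter from blood, and returning cells take time to regain the homeostatic genes. Diabetic retina is known for low-grade inflammation in which Muller glia, astrocytes and microglia express acute-phase, complement and interferon response genes.

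With an adjusted p below 0.05 as the threshold, 75 of the 16826 tested genes were called (0.446%), 30 higher (0.178%) and 45 lower (0.267%) in D10 repopulated than in D10, as the authors' deposited table gives them. Every log2 value below is D10 repopulated over D10 unless another pair is named. Its error is the standard error (SE) implied by the deposited p on a normal scale. The smallest change that was called was 0.42 on the log2 scale, and 45 of the 75 genes differed at least 2-fold. The median log2 of all tested genes was -0.00095, with a median implied SE of 0.160. No values per sample were used, so depth, spread and overlap of the groups are unknown. The numbers in the sample titles run from 2979 to 2983 for D10 and from 3031 to 3035 for D10 repopulated, and anything tied to that numbering cannot be told apart from repopulation.

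**Figure D1:**
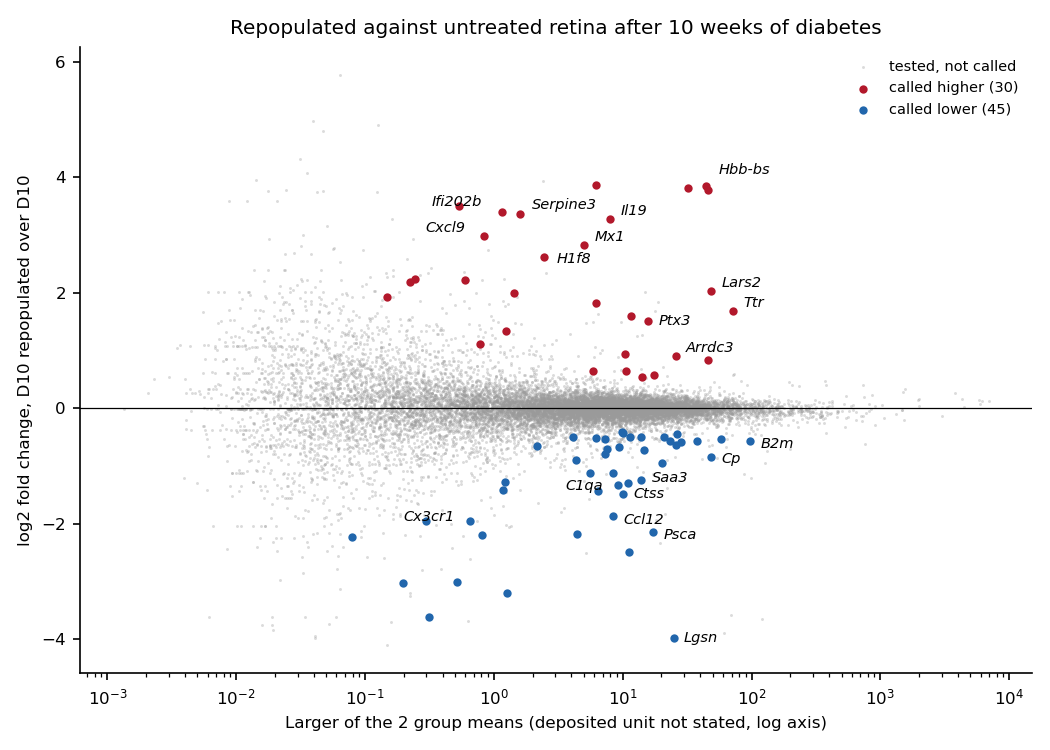
Log2 fold change of D10 repopulated over D10 (vertical axis) against the larger of both group means (horizontal log axis, unit not stated) for each tested gene. The 30 genes called higher reach log2 3.87 and the 45 called lower reach -3.97, and most tested genes lie close to 0.

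The tables give only the larger of both group means, in a unit that is not stated. A mean that recurs in several tables with ND is that of ND, and the others follow from it, so many group means can be read exactly and the rest have an upper limit. Among the 75 called genes the larger mean could be assigned to D10 or D10 repopulated in 72, and in all 72 it lay on the side given by the sign of the log2 value.

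Of 25 homeostatic microglia genes, 6 fell after repopulation, 0 rose and 19 were not called, with a median log2 of -0.94 over the 25 against -0.00095 over all tested genes. At an unadjusted p under 0.05, 15 of the 25 were lower and 2 higher, where 4.07% and 3.2% of all tested genes were. Cx3cr1 fell by log2 1.96 (implied SE 0.32, adjusted p = 5.9e-06 in the authors' deposited table). The lysosomal protease gene Ctss, a marker of microglia, fell by log2 1.48 (0.21, adjusted p = 2.17e-08 in the authors' deposited table), from a mean of 10.1 in D10 to at most 6.16, the ND mean. In bulk retina, fewer microglia and less RNA of these genes per microglial cell cannot be told apart.

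The 3 genes of C1q, the recognition molecule of the classical complement pathway, lie side by side on chromosome 4 and fell together. C1qa fell by log2 1.34 (implied SE 0.23, adjusted p = 2.21e-05), C1qb by 1.12 (0.23, adjusted p = 0.000606) and C1qc by 1.12 (0.24, adjusted p = 0.00326) in the authors' deposited table. The C1qa mean was 4.60 in ND, 6.25 at 6 weeks, 7.71 in D8 and 9.16 in D10, and at most 4.60 in D10 repopulated. The C1qb mean likewise ran from 4.05 in ND to 8.42 in D10, with at most 4.05 after repopulation. D10 thus had the highest mean of the groups for both genes, and D10 repopulated did not exceed ND. Against ND, C1qa stood at log2 0.98 in D10 and -0.35 in D10 repopulated, and C1qb at 1.04 and -0.08, in the authors' deposited tables, which share the ND samples. Itgam, an integrin gene of myeloid cells, fell by log2 1.28 (0.28, adjusted p = 0.00326 in the authors' deposited table), from a mean of 1.22 to 0.500.

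The other 19 homeostatic genes did not pass the test, and most of them had negative values. The survival receptor gene Csf1r had a log2 of -0.86 (95% interval -1.38 to -0.34, adjusted p = 0.124), Tmem119, a surface marker of resident microglia, -1.02 (-1.83 to -0.21, adjusted p = 0.438) and the signalling adaptor gene Tyrobp -1.01 (-1.62 to -0.40, adjusted p = 0.125) in the authors' deposited table. The purinergic receptor gene P2ry13 had a log2 of -1.92 (0.54, adjusted p = 0.0695) in the authors' deposited table. Not every member pointed down. P2ry12, which guides microglial processes to ATP, had a log2 of 0.20 (-0.70 to 1.09, adjusted p = 0.999) in the authors' deposited table, and its larger mean over D10 and D10 repopulated was 0.147 against 0.447 in ND. The Fc receptor-like gene Fcrls had 2.01 (0.57, adjusted p = 0.0704) and the lipid receptor gene Gpr34 1.13 (0.78, adjusted p = 0.893) in the authors' deposited table. Fcrls and Gpr34 were measured near 0, with larger means of 0.185 and 0.0849. Against ND, P2ry12 stood at log2 -1.80 in D10 and -1.59 in D10 repopulated, and Fcrls at -2.19 and -0.17, in the authors' deposited tables. Of the 25 homeostatic genes, 6 were called higher and 3 lower than ND in D10. In D10 repopulated 1 was higher and 13 were lower, where 7.49% and 4.19% of all tested genes were. Cx3cr1 stood at log2 -2.06 and Csf1r at -0.85 there, so the list as a whole was not at the ND level. Its median against ND was -0.05 in D10 and -0.66 in D10 repopulated.

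**Figure D2:**
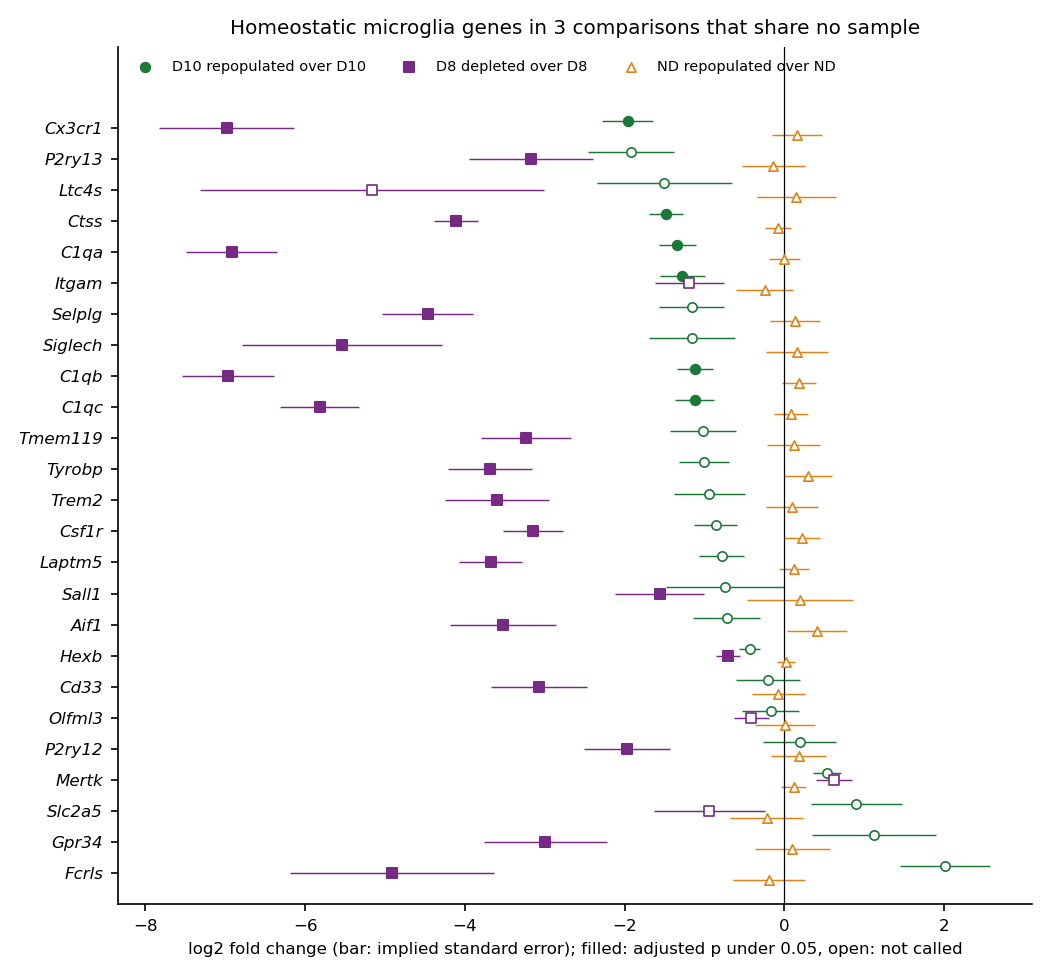
Log2 fold change (horizontal axis, bars are the implied SE) of the 25 homeostatic microglia genes in D10 repopulated over D10, D8 depleted over D8 and ND repopulated over ND, with filled symbols for genes called at an adjusted p under 0.05. Cx3cr1 lies at -1.96, -6.98 and 0.16 in these comparisons, and the 6 filled circles of D10 repopulated over D10 are all below 0.

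For 12 of the homeostatic genes the log2 value after repopulation was called higher than during depletion. D8 depleted over D8 shares no sample with D10 repopulated over D10, so the difference of both log2 values was tested with variances added. Both comparisons also differ in weeks of diabetes. Numbers in the sample titles run from 2974 to 2978 for D8 and from 3026 to 3029 for D8 depleted. What is tied to the weeks or the numbering cannot be told apart from depletion and return in this contrast. None of the 25 was called lower, and the difference was not called for 13. In D8 depleted over D8, 20 of the 25 had fallen and 0 had risen, with a median of -3.52 (10.8% of 16982 genes were called there, 5.85% higher and 4.9% lower) in the authors' deposited table. C1qb differed by log2 5.84 (SE 0.62), C1qa by 5.58 (0.61), Cx3cr1 by 5.02 and Csf1r by 2.29, all higher after repopulation. Fcrls differed by 6.93 and Gpr34 by 4.12. For Itgam, whose log2 was -1.28 after repopulation and -1.19 after depletion in the authors' deposited tables, the difference was not called (-0.09, SE 0.51).

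Repopulation of non-diabetic retina left the same list near 0. In ND repopulated over ND the homeostatic genes had a median log2 of 0.12 with 0 called in either direction, where 24 of 15402 genes were called (0.156%, with 0.0844% higher and 0.0714% lower) in the authors' deposited table. The difference between both repopulations was called for 4 of the 24 genes that could be tested, all lower in the diabetic comparison. Cx3cr1 differed by log2 -2.12 (SE 0.45, adjusted p = 0.00273), Ctss by -1.41 (0.26, adjusted p = 0.000262), C1qa by -1.34 (0.30, adjusted p = 0.00818) and C1qb by -1.31 (0.31, adjusted p = 0.0136), computed from the authors' deposited tables. Each p comes from the normal test on the difference with Benjamini-Hochberg adjustment over 15400 genes. The ND samples carry no PBS, so this contrast also differs by that treatment. The numbers in the sample titles run from 3006 to 3016 for ND and from 3021 to 3025 for ND repopulated. What is tied to that numbering cannot be told apart in this contrast either.

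The other lists of microglia and myeloid cells held 1 call among them. Microglia survival and myeloid lineage factors gave no call among 16 (median log2 -0.12). Activated microglia genes had a median of -0.19. Gpnmb, a glycoprotein gene of activated microglia and of pigment cells, was the single called gene of 25 activated microglia genes and fell by log2 1.30 (implied SE 0.24, adjusted p = 0.000138 in the authors' deposited table). Its mean was 11 in D10 and 4.43 in D10 repopulated. The chemokine gene Ccl12, which attracts monocytes, fell by 1.86 (0.36, adjusted p = 0.000234 in the authors' deposited table). Its mean was 3.66 in D6, 3.58 in D8 and 8.34 in D10, at most 0.147 in D8 depleted and 2.29 in D10 repopulated. The inhibitory receptor gene Pilra fell by 1.96, the membrane gene Ms4a6d by 1.42 and the lysosomal protease gene Ctsc by 0.90 in the authors' deposited table. Pilra was measured near 0, with a larger mean of 0.298. Pilra and Ms4a6d were in no list and were chosen after their values were seen. Markers of leukocytes that enter from blood gave no call among 15 tested, and 5 more, the monocyte receptor gene Ccr2 and the T and natural killer cell genes Cd3d, Cd3e, Trbc2 and Nkg7, had no adjusted p. Border macrophage genes gave no call among 13. The perivascular marker Cd163 had -1.82 (0.71) and the platelet and macrophage chemokine gene Pf4 1.43 (0.61) in the authors' deposited table. Both were measured near 0, with larger means of 0.0634 and 0.296.

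Of 20 acute-phase and STAT3 response genes 4 fell, 0 rose and 16 were not called, with a median log2 of -0.35. Cp, which encodes the copper-carrying ferroxidase ceruloplasmin, fell by log2 0.85 (implied SE 0.15, adjusted p = 2.59e-05 in the authors' deposited table), from a mean of 48.0 to 26.6. The metalloreductase gene Steap4 fell by 0.95 (0.23, adjusted p = 0.0188), from 20.1 to 10.4, and the serum amyloid gene Saa3 by 1.24 (0.33, adjusted p = 0.0455), from 13.9 to 5.86, in the authors' deposited table. Il6st, the signalling chain shared by receptors of the interleukin 6 family, fell by 0.42 (0.09, adjusted p = 0.000849 in the authors' deposited table), and stood at log2 0.45 over ND in D10 and 0.03 in D10 repopulated. Stat3, the factor downstream of it, had a log2 of -0.47 (0.13, adjusted p = 0.0738) and the haptoglobin gene Hp 1.31 (0.45, adjusted p = 0.228) in the authors' deposited table. For Cp, Steap4 and Saa3 the D10 mean was the highest of the 7 groups, while in D6 the means were 22.2, 6.93 and 5.94. Against ND the same 3 genes stood at log2 1.91, 6.63 and 9.66 in D10 and at 1.07, 5.69 and 8.43 in D10 repopulated, in the authors' deposited tables. Calls against ND were 7.0% of genes for D10 (5.59% higher, 1.41% lower) and 11.7% for D10 repopulated (7.49% higher, 4.19% lower).

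Among 25 reactive gliosis genes 3 fell, 1 rose and 21 were not called (median log2 -0.37). The pentraxin gene Ptx3 was the gene that rose. Besides Cp and Steap4, the growth factor gene Fgf2 fell by log2 0.53 (0.14, adjusted p = 0.0474 in the authors' deposited table), from a mean of 6.26 to 4.36. Gfap, an intermediate filament gene of reactive macroglia, was not called: its log2 was 0.10 (95% interval -0.19 to 0.40, adjusted p = 0.999 in the authors' deposited table), with means of 7.95 in D10 and 8.55 in D10 repopulated. The hyaluronan receptor gene Cd44, at -0.71, and the filament gene Nes, at -0.77, were not called in the authors' deposited table. Vcam1, which holds leukocytes to the vessel wall, fell by 0.73 (0.17, adjusted p = 0.00613 in the authors' deposited table), from 14.5 to 8.79.

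The called complement genes were those of C1q. Of 18 tested complement genes 3 fell, 0 rose and 15 were not called, with a median log2 of -0.59. At an unadjusted p under 0.05, 10 of the 18 were lower, where 4.07% of all tested genes were. The central component gene C3 had a log2 of -1.38 (0.40, adjusted p = 0.0787), the receptor gene C3ar1 -1.42 (0.44, adjusted p = 0.134) and C4b -0.58 (0.26) in the authors' deposited table.

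Class I antigen presentation genes had 1 call among 14. B2m, the shared light chain of class I molecules, fell by log2 0.58 (0.13, adjusted p = 0.00723 in the authors' deposited table), from a mean of 97.0 in D10 to 65.0 in D10 repopulated, against at most 22.1 in ND. The heavy chain gene H2-K1 had -0.47 (0.14) and the immunoproteasome gene Psmb8 -0.57 (0.21), neither called, in the authors' deposited table. The median of the list was -0.33, and 13 of its 14 members were below 0. Class II genes gave no call among 10 (median -0.01).

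**Figure D3:**
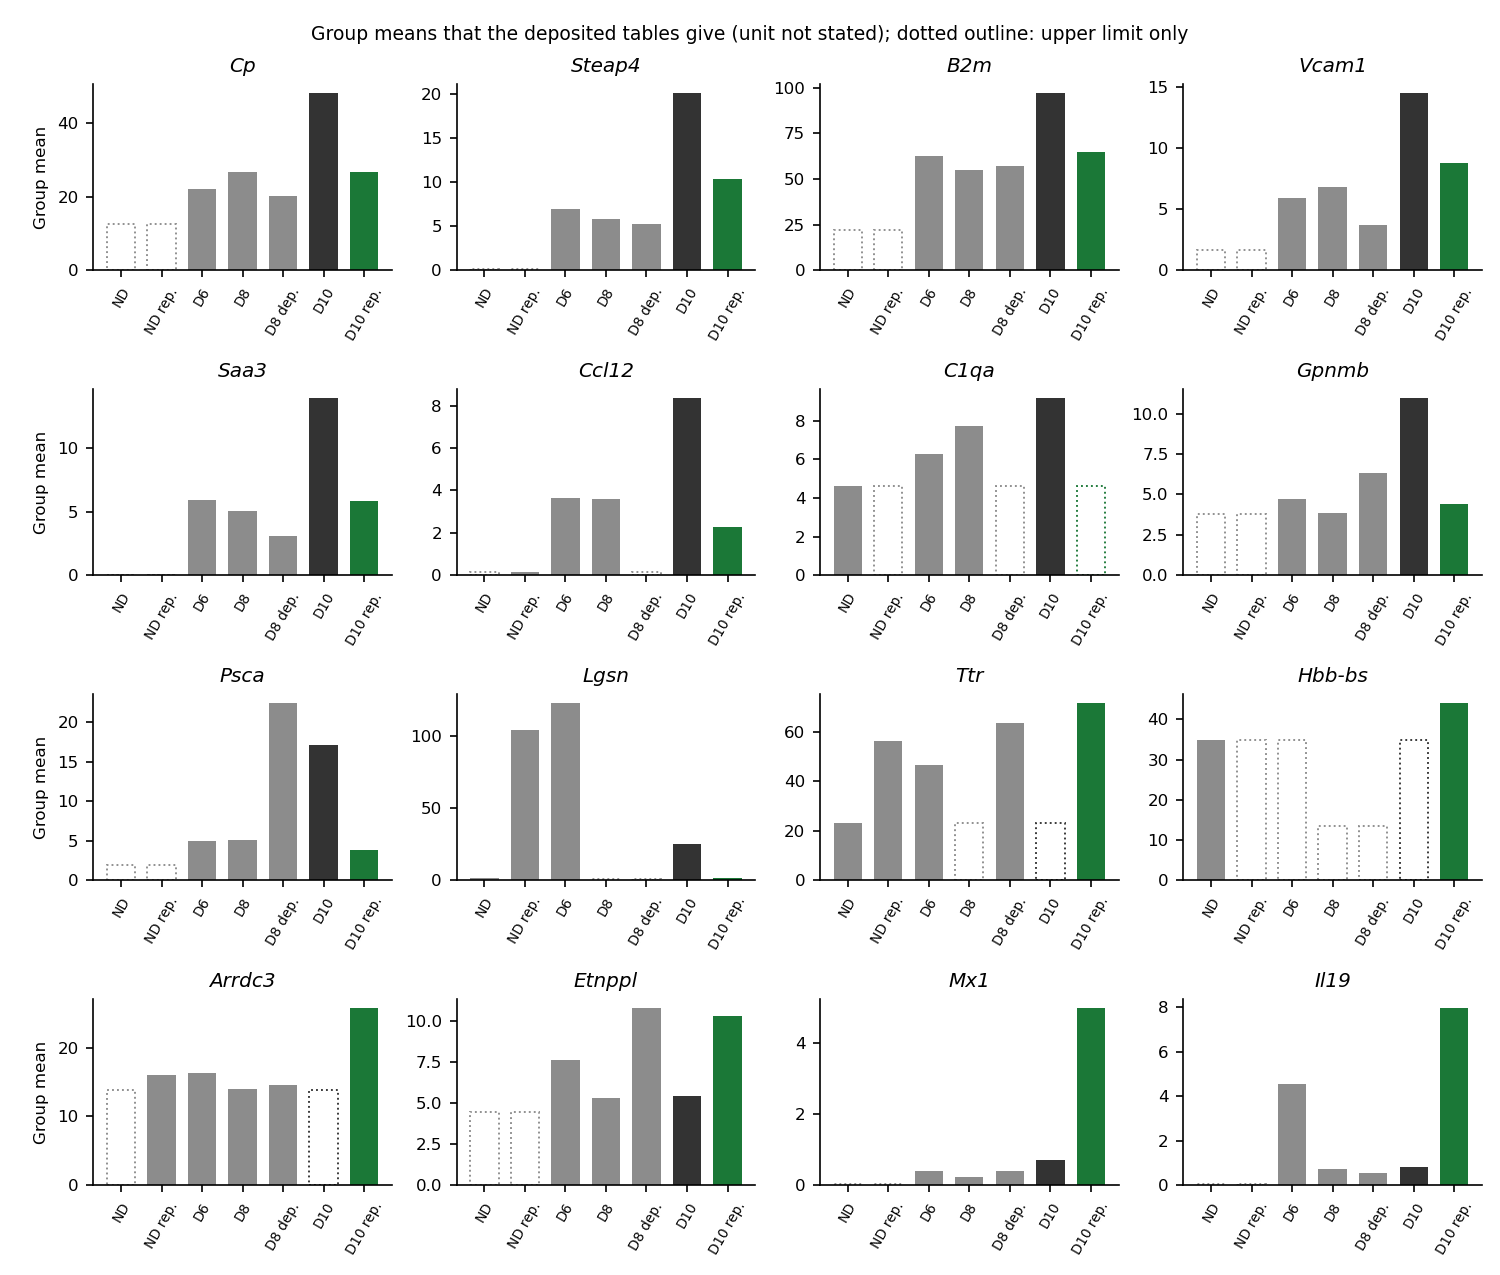
Group means (vertical axes from 0, unit not stated) of 16 genes in the 7 groups, with D10 dark and D10 repopulated green; a dotted outline marks a group for which the tables give only an upper limit, and no error can be drawn. Cp falls from 48.0 in D10 to 26.6 in D10 repopulated, while Mx1 and Il19 are highest in D10 repopulated, at 5.0 and 7.96.

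Interferon-stimulated genes did not shift as a group, and they spread in both directions. Of 28 genes 1 rose, 0 fell and 27 were not called, with a median log2 of -0.08. At an unadjusted p under 0.05, 4 were higher and 4 lower, where 3.2% and 4.07% of all tested genes were. Mx1, an antiviral GTPase gene, rose by log2 2.82 (implied SE 0.73, adjusted p = 0.0339 in the authors' deposited table), to a mean of 5.0 in D10 repopulated from 0.695 in D10. The antiviral gene Rsad2 had 1.84 (0.67) and the GTPase gene Iigp1 1.5 (0.49), while the signalling gene Irf9 had -0.50 (0.16), none of them called, in the authors' deposited table. Outside the list, Ifi202b, an interferon-inducible gene of a DNA-binding protein, rose by 3.39 (0.57, adjusted p = 1.67e-05 in the authors' deposited table), from a mean of 0.107 to 1.16; it was chosen after its value was seen. Cxcl9, a chemokine gene induced by interferon gamma that draws T cells, rose by 2.98 (0.56, adjusted p = 0.000158 in the authors' deposited table), from 0.103 to 0.832. Both remained low in level. Cxcl9 was also called higher in D8 depleted over D8, at log2 3.36 (adjusted p = 9.07e-05 in the authors' deposited table). Its difference from depletion was not called (-0.39, SE 0.88). Ifi202b was not called in D8 depleted over D8.

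Secreted mediators that rose were few. Il19, a cytokine gene of the interleukin 10 family, rose by log2 3.28 (0.74, adjusted p = 0.00527 in the authors' deposited table), from a mean of 0.810 in D10 to 7.96, with 4.52 in D6 and 0.728 in D8. Ptx3, a pentraxin gene of innate immunity, rose by 1.51 (0.39, adjusted p = 0.0289 in the authors' deposited table), from 5.50 to 15.7. The granulocyte growth factor gene Csf3 had 2.01 (0.55, adjusted p = 0.0543) and the neutrophil chemokine gene Cxcl1 1.11 (0.47, adjusted p = 0.507) in the authors' deposited table. Over the cytokine, chemokine and adhesion list 1 of 32 genes rose, 2 fell and 29 were not called (median -0.32).

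Promoter windows of RefSeq (build GRCm38.p6, which differs from the GRCm39 of the tables) were found for 63 of the 75 called genes and searched on both strands. The interferon-stimulated response element, searched as GAAA, any 2 bases and GAAA, occurred in 4 of 37 windows of genes that fell, in 1 of 26 of genes that rose and in 3.71% of 13064 tested genes. The letters GAGGAAGT, bound by the myeloid factor PU.1, occurred in 3 of 37, 0 of 26 and 3.46%. The other 5 motifs searched were as follows. The STAT element TTCNNNGAA occurred in 3 of 37 windows of genes that fell, 5 of 26 of genes that rose and 8.29% of all. The nuclear factor kappa B element, GGGA, any base and TTTCC, occurred in 1, 0 and 0.551%. The clock element CACGTG occurred in 3, 0 and 10.8%. The cyclic AMP element TGACGTCA, at 3.12% of all, and the glucocorticoid element, AGAACA, any 3 bases and TGTTC, at 0.0230%, occurred in 0 windows of called genes. A match is a description of these letters and not a bound site. The windows are shown because they belong to the antigen presentation, acute-phase, microglial and cytokine genes described above. Each runs 5′ to 3′ on the gene's strand, with the match in capitals, and in the last pair the match is the reverse complement of the PU.1 letters.
Ctss, chr3:95526706-95526785, plus strand, fell by log2 1.48: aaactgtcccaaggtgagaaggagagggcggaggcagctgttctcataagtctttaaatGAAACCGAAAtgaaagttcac
B2m, chr2:122147517-122147596, plus strand, fell by log2 0.58: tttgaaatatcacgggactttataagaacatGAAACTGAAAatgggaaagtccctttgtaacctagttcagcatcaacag
Saa3, chr7:46715757-46715836, minus strand, fell by log2 1.24: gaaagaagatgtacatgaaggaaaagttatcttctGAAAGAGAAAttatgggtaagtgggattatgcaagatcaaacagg
Il19, chr1:130940181-130940260, minus strand, log2 3.28: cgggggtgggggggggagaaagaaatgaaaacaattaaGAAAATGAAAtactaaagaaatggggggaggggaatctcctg
C1qc, chr4:136893065-136893144, minus strand, fell by log2 1.12: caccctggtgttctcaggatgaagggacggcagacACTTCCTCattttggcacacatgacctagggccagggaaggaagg
Ctsc, chr7:88277900-88277979, plus strand, fell by log2 0.90: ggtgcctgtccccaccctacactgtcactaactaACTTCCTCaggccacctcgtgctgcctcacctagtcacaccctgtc

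Other called rises were in genes of varied function. Arrdc3, an alpha-arrestin gene that acts in receptor and transporter trafficking, rose by log2 0.90 (implied SE 0.16, adjusted p = 2.59e-05 in the authors' deposited table), to a mean of 25.8 in D10 repopulated while the other 6 groups were at 16.4 or below. Etnppl, an enzyme gene of ethanolamine breakdown in astrocytes, rose by 0.93 (0.18, adjusted p = 0.000466 in the authors' deposited table), from 5.42 to 10.3. The chromatin protein gene Hmgb2 rose by 0.84 (0.18, adjusted p = 0.00259), from 25.4 to 45.6, and the cell cycle inhibitor gene Cdkn1a by 0.54 (0.14, adjusted p = 0.0424), from 9.61 to 14.0, in the authors' deposited table. Igfn1, a muscle-type immunoglobulin domain gene, rose by 0.64 (0.14, adjusted p = 0.00323) and Lars2, the mitochondrial leucyl-tRNA synthetase gene, by 2.02 (0.53, adjusted p = 0.0415) in the authors' deposited table. The purine enzyme gene Xdh rose by 1.33 and the transcription factor gene Olig3 by 1.99 in the authors' deposited table, both picked after their values were seen. H1f8, an oocyte linker histone gene, rose by 2.62 in the authors' deposited table and was also picked after its value was seen. Some of these rises were also called in D8 depleted over D8. There Etnppl had log2 0.995, Igfn1 0.39, Xdh 1.14, Olig3 2.74 and H1f8 4.30 in the authors' deposited table. Arrdc3, Hmgb2, Cdkn1a and Lars2 were not called in that comparison.

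Protein folding genes of the endoplasmic reticulum leaned downward with a single call. Of 24 heat shock and unfolded protein response genes, 1 fell, 0 rose and 23 were not called, with a median log2 of -0.39. Of the 24, 22 were below 0 and 14 were lower at an unadjusted p under 0.05, against 4.07% of all tested genes. Pdia6, a disulfide isomerase gene, fell by log2 0.56 (0.14, adjusted p = 0.0129 in the authors' deposited table). The transcription factor gene Xbp1 had -0.46 (0.13, adjusted p = 0.0538), the chaperone gene Hspa5 -0.54 (0.18, adjusted p = 0.186) and the co-chaperone gene Sdf2l1 -0.78 (0.24, adjusted p = 0.106) in the authors' deposited table. Against ND the list had a median log2 of -0.11 in D10, with 4 genes lower and 1 higher, and of -0.55 in D10 repopulated, with 16 lower and 2 higher, in the authors' deposited tables.

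Markers of tissues around the retina moved between both groups. Hemoglobin genes had the largest rises: Hbb-bt rose by log2 3.87 (implied SE 0.75), Hbb-bs by 3.84 (0.71), Hba-a1 by 3.81 (0.76) and Hba-a2 by 3.78 (0.71), with adjusted p-values from 0.000128 to 0.000537 in the authors' deposited table. The pairs Hba-a1 and Hba-a2, and Hbb-bs and Hbb-bt, are near-identical copies between which reads can be split, so each pair counts as 1 measurement. The Hbb-bs mean was 34.8 in ND, at most 13.5 in D8 and D8 depleted, at most 34.8 in D10 and 44.0 in D10 repopulated. In D8 depleted over D8 these 4 hemoglobin genes were also called higher, with Hbb-bs at log2 2.22 (adjusted p = 0.00665 in the authors' deposited table). The difference of Hbb-bs from depletion was not called (1.62, SE 0.93). Against ND, Hbb-bs stood at log2 -3.45 in D10 and 0.40 in D10 repopulated, in the authors' deposited tables. All 7 tested blood cell genes were above 0, and 4 were called. The summed mean of 8 blood genes was at most 99.0 in D10 and at most 129 in D10 repopulated, against 99.1 in ND and at most 38.9 in D8, and none was at 0. Of the 8 values, 6 were upper limits in D10 and 7 in D8, so those sums do not give the level. The log2 values above do compare the groups. The part of blood in the other results was not tested.

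Pigment epithelium genes split. Of 16, 3 rose, 1 fell and 12 were not called (median log2 -0.10). Rpe65, the isomerase of the visual cycle, rose by 1.81 (0.48, adjusted p = 0.0424), the retinoid and thyroxine carrier gene Ttr by 1.68 (0.40, adjusted p = 0.0129) and the opsin-like gene Rgr by 1.6 (0.42, adjusted p = 0.0413) in the authors' deposited table. Lrat, which makes retinyl esters, had 1.93 (0.52, adjusted p = 0.0527) in the authors' deposited table. The melanosome matrix gene Pmel fell by 1.43 (0.38, adjusted p = 0.0455 in the authors' deposited table), and the pigment genes Mlana and Tyrp1 had -1.14 and -0.88. Visual cycle and melanosome genes of the pigment epithelium list thus lay on opposite sides. Ttr means were 71.5 in D10 repopulated, 63.5 in D8 depleted and 56.3 in ND repopulated, against 23 in ND and at most 23 in D8 and D10. The summed mean of the 16 genes was at most 329 in D10 and at most 381 in D10 repopulated, with none at 0 and 7 upper limits in each group. The part of pigment epithelium in the other results was not tested.

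Single genes of lens and surface epithelium were among the called falls. Lgsn, a lens gene, fell by log2 3.97 (1.02, adjusted p = 0.0289 in the authors' deposited table), from a mean of 24.9 in D10 to 1.59, and Lenep, of the lens epithelium, by 2.49 (0.62, adjusted p = 0.0219 in the authors' deposited table). Their means varied widely among the other groups: Lgsn was 1.57 in ND, 105 in ND repopulated, 123 in D6 and at most 0.896 in D8. The lens list gave no call among 20 tested genes (median -0.97), with the crystallin genes Crygd, Crygb and Crygc at -3.89 (1.11), -3.65 (1.13) and -3.58 (1.10) in the authors' deposited table; these crystallin genes are close copies. Psca, a surface antigen gene of epithelia, fell by 2.15 (0.49, adjusted p = 0.00649), from 17.1 to 3.88, and the epithelial protease gene Prss22 by 2.18 (0.56, adjusted p = 0.0281), from 4.45 to 0.987, in the authors' deposited table. The cornified envelope gene Lce3a, keratin gene Krt75 and protease inhibitor gene Csta1 fell by 3.21, 3.02 and 2.19 in the authors' deposited table. Their larger means were low, at 1.26, 0.196 and 0.806, and these genes were chosen after their values were seen. The keratin and surface epithelium list went the other way, with no call among 17 and a median of 0.53. The part of these tissues in the other results was not tested.

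Neuronal and structural lists gave no call. This holds for the ganglion cell (18 genes, median log2 0.12), rod (21, -0.09), cone (16, -0.04), bipolar (17, -0.02), amacrine and horizontal cell (21, 0.06) and synapse (25, 0.02) lists. It also holds for Muller glia (18, 0.06), astrocytes (10, 0.11), endothelium (20, -0.16), pericytes (14, -0.00) and extracellular matrix (20, 0.02). The melanopsin gene Opn4 had a log2 of 0.06 (95% interval -0.44 to 0.57) and the angiogenic growth factor gene Vegfa -0.14 (-0.44 to 0.15) in the authors' deposited table. Circadian clock genes gave no call among 19 and had a median of 0.17. At an unadjusted p under 0.05, 5 were higher and 0 lower, where 3.2% and 4.07% of all tested genes were. Ciart, a clock repressor gene, had 0.51 (0.15, adjusted p = 0.0756) in the authors' deposited table. Of the 40 lists 28 held no called gene, and 47 of the 75 called genes were in no list.

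**Figure D4:**
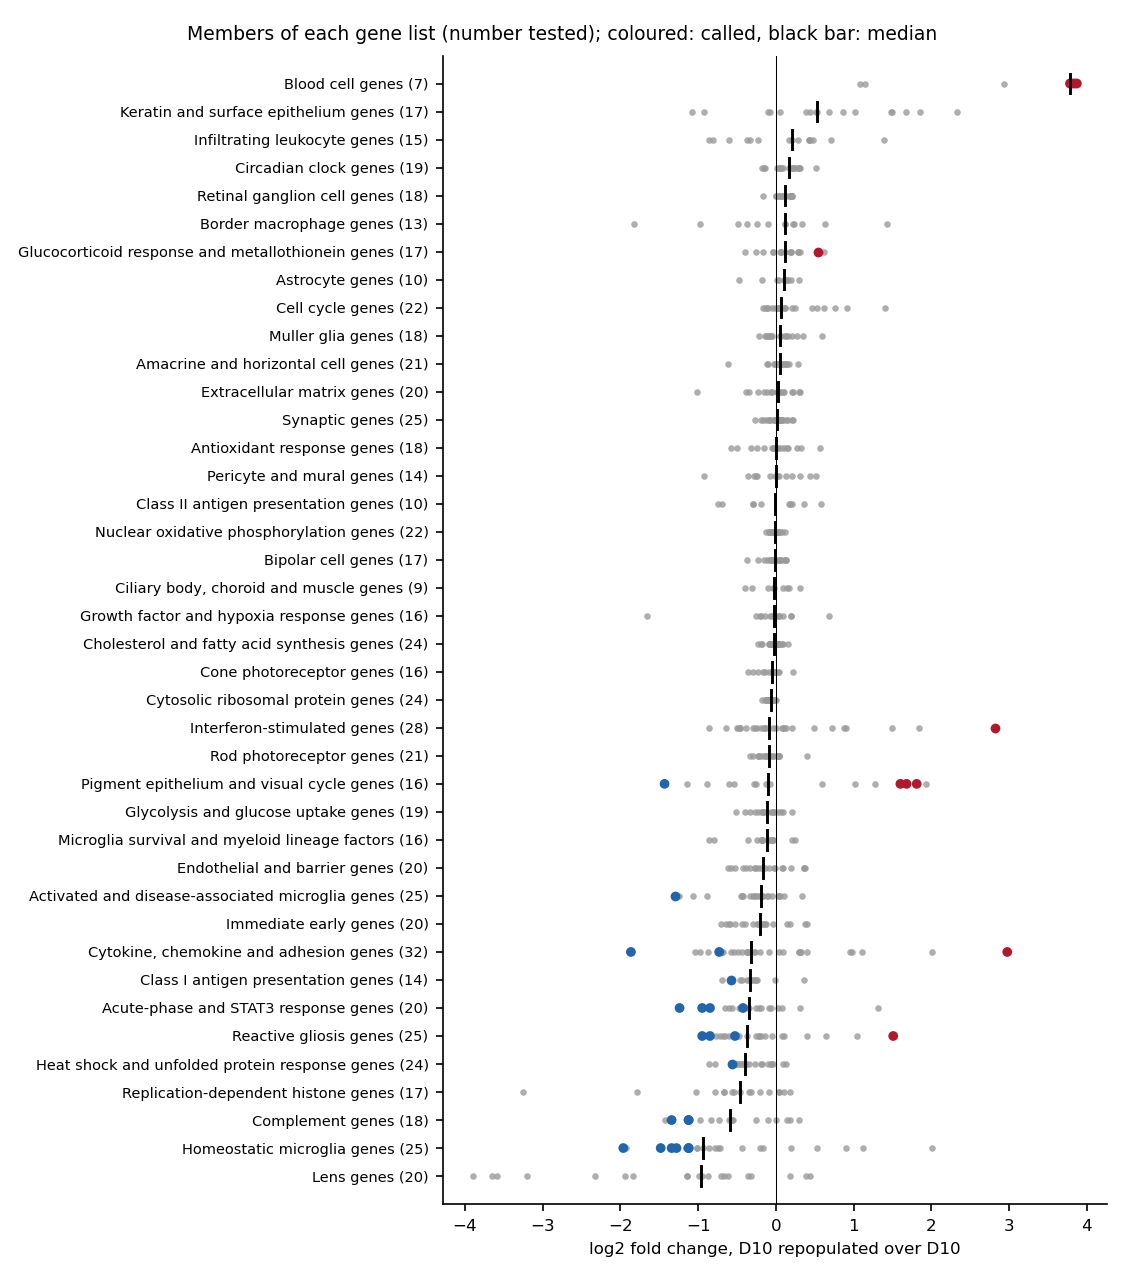
Log2 fold change of D10 repopulated over D10 (horizontal axis) for each tested member of the 40 gene lists, ordered by median (black bar), with called members in red (higher) or blue (lower). Homeostatic microglia genes have a median of -0.94 and blood cell genes of 3.78, while the neuronal lists lie close to 0.

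The change after repopulation differed from that during depletion for 109 of 16672 genes (0.654%), 48 with a higher (0.288%) and 61 with a lower log2 (0.366%) in D10 repopulated over D10. The microglial genes above led the higher side, together with Ccl12 (difference 5.49, SE 1.36) and Lyz2, a lysozyme gene of myeloid cells (1.81, 0.44). Neuronal genes were also on it. Slc17a6, which loads glutamate into vesicles of ganglion cells, had 0.20 after repopulation and -0.76 after depletion in the authors' deposited tables (difference 0.96, SE 0.20, adjusted p = 0.000866). The synaptic vesicle gene Syn1 had 0.08 and -0.65 in the authors' tables (difference 0.73, 0.17, adjusted p = 0.00555), and the Muller glia potassium channel gene Kcnj10 0.27 and -0.66 (0.93, 0.22, adjusted p = 0.00964). On the lower side stood epithelial genes: Psca had -2.15 and 2.11 in the authors' deposited tables (difference -4.26, 0.62), Prss22 -2.18 and 1.63 (-3.82, 0.70) and Prss27, another epithelial protease gene, -1.26 and 2.45 (-3.71, 0.73). Gpnmb (-1.98, 0.34) and Pmel (-2.49, 0.53), which pigment cells share, were also lower after repopulation, as was the histone gene H2ac19 (-6.36, 1.48). Slc17a6, Syn1, Kcnj10, Lyz2, Gpnmb and Pmel were picked from this test after their values were seen. Weeks of diabetes and title numbers also differ in this contrast, and neither can be told apart from depletion and return.

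Repopulation in diabetic and in non-diabetic retina differed for 29 of 15400 genes (0.188%), 12 with a higher (0.0779%) and 17 with a lower log2 (0.11%) in the diabetic comparison. Besides the 4 microglial genes, lens genes were on the lower side, since they fell or were negative in diabetic and rose or were positive in non-diabetic repopulation: Lgsn had log2 -3.97 and 6.08, Crygd -3.89 and 5.69, and Lenep -2.49 and 4.03 in the authors' deposited tables. The small heat shock gene Hspb1 had -0.85 and 2.92 in the authors' deposited tables (difference -3.77, SE 0.74, adjusted p = 0.000674). Hemoglobin genes were on the higher side, with Hba-a1 at 3.81 and -1.25 in the authors' deposited tables (difference 5.06, 1.10, adjusted p = 0.00416). Etnppl, at 0.93 and -0.19 in the authors' deposited tables (difference 1.12, 0.26, adjusted p = 0.00978), was the single gene of the small rises above that also differed. The early response genes Egr1 and Nr4a1 were near 0 in diabetic repopulation, at -0.22 and -0.20. In the non-diabetic one they stood at -2.61 and -1.44, in the authors' deposited tables. The interferon regulator gene Irf7 likewise had 0.09 and -0.96. Against ND, Nr4a1 stood at log2 -1.34 in D10, which had no depletion, and -1.53 in D10 repopulated, in the authors' deposited tables. For Nr4a1, ND thus stood apart from D10, D10 repopulated and ND repopulated alike. Of the 75 genes called in D10 repopulated over D10, 11 differed in this test.

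**Figure D5:**
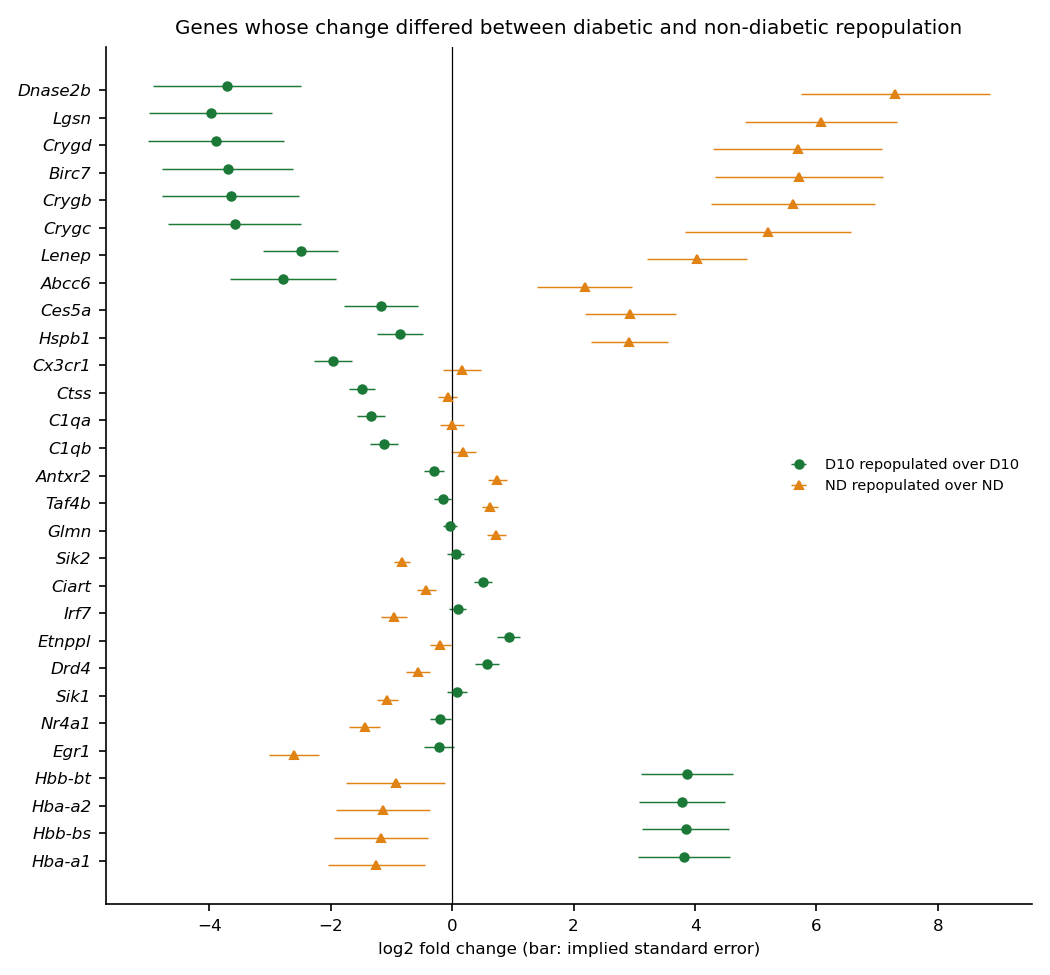
Log2 fold change (horizontal axis, bars are the implied SE) of the 29 genes whose change differed between D10 repopulated over D10 (circles) and ND repopulated over ND (triangles). Lens genes such as Lgsn lie at -3.97 and 6.08, Cx3cr1 at -1.96 and 0.16, and the hemoglobin genes are near 3.8 and below 0.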

How the data were processed

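Stranded poly(A) libraries of mouse retina were read as 100 bp pairs, per the labels' protocols. bcl2fastq and GRCm39 are named in the submitters' processing notes; the aligner, the counting tool and the test are unnamed in those sources. The authors deposited 8 comparison tables with, per the file headers, a log2 fold change, a signed fold change, a p-value and an FDR p-value for each of 25655 genes, and the larger of both group means, a signal whose unit the headers do not give. The FDR values equal Benjamini-Hochberg values within 0.000489. The table of D10 over D10 repopulated was turned in sign. No counts or values per library were used, so depth and its precision are unknown, and no new model was fitted.

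For each gene the SE was taken as log2 over the normal quantile that matches p. Differences between comparisons without shared samples used a two-sided normal test with variances added and Benjamini-Hochberg adjustment, called under 0.05; without values per sample no exact test was possible. Lists (40, with 739 genes in the tables) are described by counts and medians, without a set test. Members, lists and tests were chosen with earlier results of these data known. Named genes are the 15 largest called rises and falls in the upper 60 percent of level without predicted names, up to 4 called members with the smallest p of each list, the homeostatic microglia genes, Gfap, Vegfa, Opn4 and 1 gene not reported here, and the 8 largest called differences of each test. Genes that the text picks beyond this rule include other members of the lists and the genes it marks so. On simulated data with these SEs, of 200 changed among 16826 genes in D10 repopulated over D10, 96% of those of log2 1 and 98% of log2 2 were recovered, with 2.96% of calls false. For the difference from depletion 84% and 96% were recovered among 16672 genes, with 5.47% of calls false. For that from non-diabetic repopulation the shares were 78% and 98% among 15400, with 4.10% false. Genes were drawn independently and changed only where the level was over 1. Noise was drawn with the same SEs that the test used, so the share of false calls was set by construction. The 200 planted changes reached log2 4, so recovery in the data may be lower, and for genes of lower level it is unknown. Python 3.11.15, numpy 2.4.6, pandas 2.3.3, scipy 1.17.1 and matplotlib 3.10.9 were used.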

Additional observations from a re-analysis of the deposited data

Results flagged for a closer look

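The change with repopulation differed between diabetic and non-diabetic retina for 29 genes by the normal test of the difference, and each value here is the log2 of D10 repopulated over D10 minus that of ND repopulated over ND, computed from the authors' deposited tables. Lower in the diabetic comparison were the lens-associated genes Dnase2b (-11.0), Lgsn (-10.1), Crygd (-9.58), Birc7 (-9.41), Crygb (-9.26), Crygc (-8.78) and Lenep (-6.52). Abcc6 (-4.96), Ces5a (-4.11) and Hspb1 (-3.77) were also lower. Some of these were measured near 0. The larger mean over D10 and D10 repopulated was 0.159 for Dnase2b, 0.629 for Birc7, 0.0609 for Abcc6 and 0.308 for Ces5a. The microglial genes differed by less, Cx3cr1 by -2.12, Ctss by -1.41, C1qa by -1.34 and C1qb by -1.31. Antxr2 (-1.05), Taf4b (-0.78) and Glmn (-0.76) complete that side. Higher in the diabetic comparison were the hemoglobin genes Hba-a1 (5.06), Hbb-bs (5.01), Hba-a2 (4.93) and Hbb-bt (4.80). Early response and signalling genes followed, Egr1 (2.38), Nr4a1 (1.24), Sik1 (1.15) and Sik2 (0.88). The others were the dopamine receptor gene Drd4 (1.13), Etnppl (1.12), Irf7 (1.05) and the clock gene Ciart (0.93). Nr4a1, Sik1, Sik2, Antxr2, Taf4b and Glmn were also called against ND in D10, which had no depletion. There they stood at log2 -1.34, -1.11, -1.08, 1.01, 0.86 and 0.93. In ND repopulated over ND they had -1.44, -1.06, -0.82, 0.75, 0.63 and 0.73, in the authors' deposited tables. For these genes ND stood apart from undepleted D10 too. Egr1 and Irf7 were not called in D10 over ND. The lens list had a summed mean of at most 8041 in ND repopulated, 4139 in ND, 2813 in D10 and 2560 in D10 repopulated. Of its 21 genes, 12 were upper limits in D10 and 18 in D10 repopulated, so those sums only bound the level. The part of lens in these differences was not tested.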

How the results depend on the processing

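D10 repopulated over D10 had 38 calls (15 higher, 23 lower) at a threshold of 0.01 and 144 (55 and 89) at 0.10. Requiring an absolute log2 of at least 1 left 45 genes, 22 of them lower. Without the lowest 40 percent of level 57 genes were called, 52 of them among the 75, with 19 higher. The difference from depletion had 46 calls (18 and 28) at 0.01, 272 (138 and 134) at 0.10 and 61 (31 and 30) without genes of low level. Counts for the difference from non-diabetic repopulation stayed within 1.5 times under every alternative run, as did those with predicted names left out or values centred on the median. Of the named genes none reversed; 1, Fgf2, lost its call when the authors' values were centred (adjusted p = 0.0535). The difference of the 2 tables against ND gave each of 67 named genes the same log2 within 0.0319. It rests on the same D10 and D10 repopulated samples, so close values follow largely by construction and give no separate check. Homeostatic microglia genes are mostly of low level, and 7 of 25 were in the upper 60 percent. Leaving out a sample was not run, since no values per sample were used. No paired analysis was possible because the labels carry no replicate numbers and the tables hold no values per sample.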

Other observations

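Called genes that neighbour each other moved together. Besides the C1q and hemoglobin genes, the olfactory receptor genes Olfr1392 and Olfr1393, which are 2513 bases apart on chromosome 11, rose by log2 2.19 and 2.22 in the authors' deposited table, with means of 0.224 and 0.593 in D10 repopulated. Several called genes of low level lie within or beside genes of at least 10 times their level. Cx3cr1, with a larger mean of 0.656, overlaps Gorasp1 on the same strand (6.77) and Wdr48 on the opposite one (13.5), whose log2 values were -0.07 and -0.02 in the authors' deposited table. Gm20521, a predicted gene that rose by 3.50, overlaps Bcl2l2 and Pabpn1 on the same strand, which had 0.04 and 0.08 in the authors' deposited table. Slc5a3, with a larger mean of 2.17 and a fall of 0.66, overlaps Mrps6 on the same strand (26.3). Mrps6 was also negative, at -0.33, and was not called in the authors' deposited table. Whether reads of neighbours enter these values was not tested.

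Other falls belong to no list, and those given here were chosen after their values were seen. The glucokinase regulator gene Gckr fell by log2 0.64 and the inositol transporter gene Slc5a3, which responds to osmotic stress, by 0.66 in the authors' deposited table. The hedgehog ligand gene Dhh fell by 0.79, from a mean of 7.24 in D10 to at most 4.20, the aryl hydrocarbon receptor repressor gene Ahrr by 0.71 and the membrane linker gene Msn by 0.43, from 9.98 to 7.37, in the authors' deposited table.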
